A study of Mus musculus with 14 samples.

Results

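The step from 4 h to 8 h of GATA6 induction was followed in mouse embryonic stem (ES) cells through 4 lists of ATAC-seq peaks, 2 from each time point. Peaks of the 4 lists that overlapped by 1 bp or more were merged into 81025 regions. A region was gained if both 8 h libraries and neither 4 h library called it. It was lost if both 4 h libraries and neither 8 h library did, and shared if it was called in all 4. By this rule 3988 of the 81025 regions (4.92%) were gained, 4748 (5.86%) lost and 40459 (49.9%) shared. The remaining 31830 regions were called in other combinations. All 14 libraries of the series together gave 124598 regions.

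The 4 libraries came from the KH2 ES cell line, labelled as strain C57BL/6, with a single-copy transgene in which a bidirectional tetracycline-responsive element drives FLAG-tagged GATA6 and the red fluorescent protein DsRed2. At both time points the cells were in serum medium with leukaemia inhibitory factor and 1 µg/mL doxycycline (Dox), so that medium and agent were the same and only the time in them differed. Each library was made from 50000 cells of this 1 line, and the labels do not say whether the 2 libraries of a time point came from separate cultures. The series also holds 2 libraries each at 0, 2, 16, 24 and 48 h. Cells at 0 h had received no Dox and grew without serum, in a medium holding 2 kinase inhibitors and LIF, and those of 16, 24 and 48 h had received Dox for 12 h and were then kept in serum medium without it. Cells in serum without Dox were not among the samples, so time in serum and time with GATA6 cannot be told apart.

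In ATAC-seq a transposase inserts sequencing adapters where DNA is not covered by nucleosomes, and a peak marks a stretch with many insertions. GATA6 is a zinc-finger transcription factor that can bind its motif in closed chromatin and is needed for the primitive endoderm (PrE), the sheet of cells that covers the epiblast (Epi) of the blastocyst and later forms the endoderm of the yolk sac. ES cells resemble the Epi, whose naive state is held by factors such as NANOG, OCT4, SOX2, ESRRB and the Kruppel-like factors. AP-1 factors, dimers of FOS and JUN proteins, are induced within minutes by growth factors and serum.

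Sequences from the centres of 10 changed regions are given first, because the motif content of the gained and lost classes differed. They are the forward strand of GRCm38, read 5′ to 3′ from the RefSeq genome. In gained regions capitals mark the GATA motif, searched as AGATAA or AGATAG or TGATAA or TGATAG on both strands. The 3 gained regions with the highest score ranks whose centre held no exon were 7.48 kb from the start site of Sstr1, 33.2 kb from that of Gfi1 and in a stretch of chromosome 2 with no start site within 50 kb.
Near Sstr1, gained, chr12:58219188-58219387: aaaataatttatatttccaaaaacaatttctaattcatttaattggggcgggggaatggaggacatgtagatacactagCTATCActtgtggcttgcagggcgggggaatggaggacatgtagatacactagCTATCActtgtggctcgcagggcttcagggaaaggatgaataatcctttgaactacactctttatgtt
Near Gfi1, gained, chr5:107759171-107759370: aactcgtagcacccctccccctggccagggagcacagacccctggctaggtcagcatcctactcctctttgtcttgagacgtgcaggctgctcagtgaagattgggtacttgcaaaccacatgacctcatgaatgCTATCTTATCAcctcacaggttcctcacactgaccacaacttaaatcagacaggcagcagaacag
Chromosome 2, gained, chr2:61295108-61295307: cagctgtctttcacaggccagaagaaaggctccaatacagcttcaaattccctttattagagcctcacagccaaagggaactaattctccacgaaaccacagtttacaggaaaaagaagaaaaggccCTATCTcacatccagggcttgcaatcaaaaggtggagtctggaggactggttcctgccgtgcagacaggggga
Both GATA matches of the region near Sstr1 lay in copies of a stretch of 49 bases that occurs more than once in the window. Gained regions near PrE transcription factors are represented by the highest-ranked one for Sox17 and for Gata4. The first lay 40.3 kb from the start site in intergenic DNA and held 1 GATA match, and the second lay in an intron of Gata4, 6.40 kb from a start site, and held none.
Sox17, gained, chr1:4537571-4537770: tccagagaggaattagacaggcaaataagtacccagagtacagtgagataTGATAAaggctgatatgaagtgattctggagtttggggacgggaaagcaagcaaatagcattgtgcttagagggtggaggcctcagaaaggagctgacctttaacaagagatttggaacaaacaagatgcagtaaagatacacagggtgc
Gata4, gained, chr14:63264625-63264824: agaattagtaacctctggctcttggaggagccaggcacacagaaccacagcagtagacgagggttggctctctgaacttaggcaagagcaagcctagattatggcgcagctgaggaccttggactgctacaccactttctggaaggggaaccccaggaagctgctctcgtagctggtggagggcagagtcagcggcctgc
In lost regions capitals mark the AP-1 motif TGANTCA, where N is any base. The 3 highest-ranked lost regions had no start site within 50 kb. The first was intergenic, the second lay in an intron of Ism1 and the third in an intron of Lrfn5.
Chromosome 16, lost, chr16:30940050-30940249: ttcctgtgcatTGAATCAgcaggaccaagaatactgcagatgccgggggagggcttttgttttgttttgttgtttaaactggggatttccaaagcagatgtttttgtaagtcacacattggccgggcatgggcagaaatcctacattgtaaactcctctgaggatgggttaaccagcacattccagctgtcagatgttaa
Intron of Ism1, lost, chr2:139741005-139741204: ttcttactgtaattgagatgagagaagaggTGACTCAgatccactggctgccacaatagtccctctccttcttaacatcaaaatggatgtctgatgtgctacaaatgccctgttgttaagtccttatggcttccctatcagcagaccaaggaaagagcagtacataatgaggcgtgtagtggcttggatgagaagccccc
Intron of Lrfn5, lost, chr12:61610156-61610355: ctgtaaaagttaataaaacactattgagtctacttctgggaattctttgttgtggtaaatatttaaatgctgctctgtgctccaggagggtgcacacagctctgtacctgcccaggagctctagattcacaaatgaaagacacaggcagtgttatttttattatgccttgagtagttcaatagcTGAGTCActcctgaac
Lost regions near naive factors are represented by the highest-ranked one for Klf2, which held no AP-1 match, and the highest-ranked one for Nanog, which held 1. Both were intergenic, 15.4 kb and 17.7 kb from a start site.
Klf2, lost, chr8:72334354-72334553: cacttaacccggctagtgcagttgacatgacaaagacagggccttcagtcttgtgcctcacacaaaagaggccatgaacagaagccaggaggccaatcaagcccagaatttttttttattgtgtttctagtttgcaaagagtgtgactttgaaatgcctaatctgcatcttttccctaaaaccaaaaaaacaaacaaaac
Nanog, lost, chr6:122689695-122689894: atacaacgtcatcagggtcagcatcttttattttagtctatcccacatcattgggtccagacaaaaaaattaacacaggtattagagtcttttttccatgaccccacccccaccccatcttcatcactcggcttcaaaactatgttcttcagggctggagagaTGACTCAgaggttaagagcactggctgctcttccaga

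The 4 lists were of similar length and the replicates resembled each other. The 4 h lists held 59741 and 62604 peaks and the 8 h lists 61393 and 61403, within the range of 55588 to 65073 over the series. Mean peak number was 61172.5 ± 2024 in the 4 h libraries and 61398 ± 7.07 in those of 8 h (SD over 2 libraries), a difference within the spread of the 4 h libraries (exact permutation p = 1, two-sided). Covered length was 27.9 and 29.6 Mb at 4 h and 26.5 and 27.7 Mb at 8 h, with no overlap (exact permutation p = 0.333, two-sided). Median peak width was 428 and 436 bp at 4 h and 388 and 403 bp at 8 h, with no overlap (exact permutation p = 0.333, two-sided). With 2 libraries against 2 no p under 0.333 is possible. As a measure of likeness, the length shared by a pair of lists was divided by the length of their union. This Jaccard index was 0.680 for the 4 h pair and 0.672 for the 8 h pair, and 0.599 to 0.607 for the 4 pairs across time points. Sequencing depth is unknown from peak lists, and a region missing from a list may still be accessible below that list's threshold. Since the cells were profiled in bulk, fewer cells with an accessible region and less access per cell cannot be told apart.

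The start sites of marker genes were checked against the label. A peak lay within 1 kb of a start site of 5 of 5 ES cell markers (Nanog, Pou5f1, Sox2, Esrrb and Zfp42) in both 4 h libraries and of 4 of 5 in both 8 h libraries, where Nanog had none. Of 5 PrE markers (Gata6, Gata4, Sox17, Pdgfra and Dab2), 4 and 5 had a peak in the 4 h libraries and 5 in each 8 h library. The promoter of Gata4, which encodes a second GATA factor of the endoderm, was the one missing in 1 of the 4 h libraries. Of the fibroblast markers, Col1a1 had a promoter peak in all 4 libraries, and Col3a1, Twist1 and Prrx1 had none in any. All 3 trophectoderm markers, Cdx2, Eomes and Elf5, had a promoter peak in every one of the 4 libraries, so a promoter peak alone did not separate these lineages.

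Gained and lost regions were mostly low-ranking peaks. Each peak has a score, which was ranked within its own list and expressed as a percentile, where 100 is the highest score. The median percentile of gained regions was 24.0 in both 8 h libraries, and that of lost regions was 24.8 and 27.3 in the 4 h libraries. Shared regions had medians of 64.9 and 66.5 at 4 h and 66.0 and 66.1 at 8 h. Of gained regions 51.4% and 52.1% fell in the lowest 25% of the scores of their library and 0.702% and 0.401% in the highest 25%. For lost regions these shares were 50.5% and 45.8% in the lowest 25%, and 0.990% and 1.14% in the highest. Only 216 gained regions (5.42%) and 361 lost regions (7.60%) lay above the median in both libraries that called them, against 21201 shared regions (52.4%).

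Gained regions were also narrow. Their peaks had median widths of 315 and 321 bp in the 8 h libraries. Peaks of lost regions measured 395 and 410 bp in the 4 h libraries, and those of shared regions 474 and 488 bp at 4 h and 447 and 466 bp at 8 h. The lists themselves had narrower peaks at 8 h. As percentiles of width in their own list, gained regions had medians of 36.3 and 35.8 and lost regions 43.8 and 45.2, so that gained regions ranked lower in width on this scale too. Within shared regions, the 8 h peak was 7 bp narrower than the 4 h peak at the median for both replicate numbers.

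**Figure D1:**
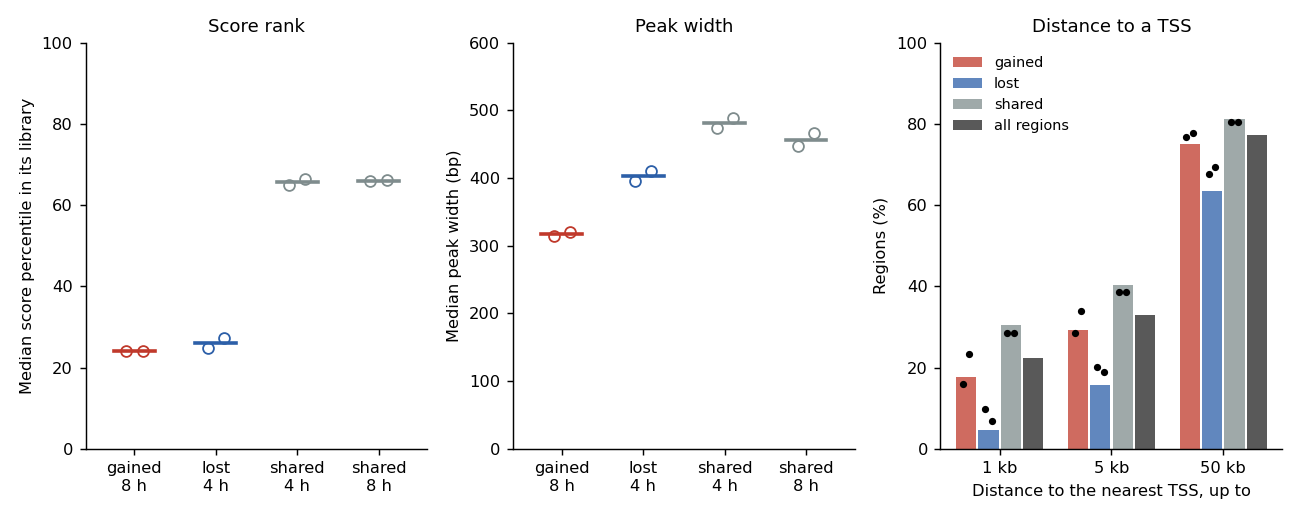
Median score percentile, median peak width (bp) and share of regions (%) up to 1, 5 and 50 kb from a transcription start site (TSS) for each class. Circles are single libraries and lines their means in the first and second panel. In the third, bars are the classes as defined and dots the same classes rebuilt from 1 replicate pair each. Gained and lost regions have medians between 24.0 and 27.3 against 64.9 to 66.5 for shared regions, and lost regions are the farthest from start sites.

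The rule divides regions that differ little at its edges. Of the gained regions, 384 (9.63%) had a 4 h peak within 100 bp, and 142 lost regions (2.99%) had an 8 h peak that near. Regions called in 3 of the 4 libraries numbered 10661 (13.2%), those called in 1 library 16581 (20.5%), and those called in 1 library of each time point 4588 (5.66%). In comparisons of 1 library of 8 h with the same-numbered one of 4 h, 12454 and 11601 regions were gained and 11689 and 13678 were lost, and gained outnumbered lost in the first pair and not in the second. Leaving out any 1 of the 4 libraries, which asks for fewer calls, raised the gained regions to between 6213 and 8397 and the lost ones to between 7396 and 9511. The slight excess of lost over gained regions was thus within the difference between replicate pairs.

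Lost regions lay far from start sites, and gained regions were intermediate between lost and shared ones. Of the gained regions 17.7% lay within 1 kb of a TSS of a protein-coding gene, 29.3% within 5 kb and 75.2% within 50 kb. Of the lost regions these shares were 4.70%, 15.8% and 63.5%, and of the shared regions 30.4%, 40.3% and 81.2%, against 22.4%, 33.0% and 77.4% of all 81025 regions. The median distance was 15.6 kb for gained, 28.6 kb for lost and 9.67 kb for shared regions. In the 2 replicate pairs taken singly, 28.4% and 34.0% of gained and 20.2% and 18.9% of lost regions lay within 5 kb, so the classes did not overlap between pairs. Introns held 44.4% of gained and 48.6% of lost regions, exons 8.43% and 3.33%, and intergenic DNA 47.2% and 48.1%. The median GC content of the central 200 bp was 50.5% in gained, 48.5% in lost and 53.5% in shared regions.

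The libraries of the other 5 time points took no part in the rule and show how long the changes lasted. Gained regions were called at 16.1% and 21.0% in the 0 h libraries, 13.5% and 16.9% at 2 h, 63.3% and 65.2% at 16 h, 56.0% and 57.7% at 24 h, and 48.7% and 51.0% at 48 h. The 6 later libraries were all higher than the 4 earlier ones, and their means were 57.0% ± 6.54 (SD, n = 6) and 16.9% ± 3.11 (SD, n = 4), a difference of 40.1 percentage points (exact permutation p = 0.00476, two-sided, adjusted p = 0.00476 over 2 tests). Lost regions were called at 50.8% and 52.2% at 0 h, 74.7% and 79.0% at 2 h, 19.0% and 23.4% at 16 h, 10.7% and 10.8% at 24 h, and 8.80% and 9.58% at 48 h. All earlier libraries were higher than all later ones, with means of 64.2% ± 14.7 (SD, n = 4) and 13.7% ± 6.02 (SD, n = 6), and the difference, later minus earlier, was -50.5 points (exact permutation p = 0.00476, two-sided, adjusted p = 0.00476). This p is the smallest that the 210 arrangements allow. The p-values here measure the spread between libraries, which may be technical. Since each side of the test pools libraries of different time points, that spread also holds differences between times. For gained regions the later time points had means from 49.8% to 64.2%, with SDs of 1.17 to 1.61 between replicates. Lost regions averaged 51.5% (SD 0.938) before Dox and 76.8% (SD 3.05) after 2 h. Without the 0 h libraries all cells were in serum medium, but those of 2 h had Dox and the later ones had it removed. The differences were then 41.8 and -63.1 points (exact permutation p = 0.0357 for each, two-sided, adjusted over 2 tests). Here too no smaller p was possible.

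**Figure D2:**
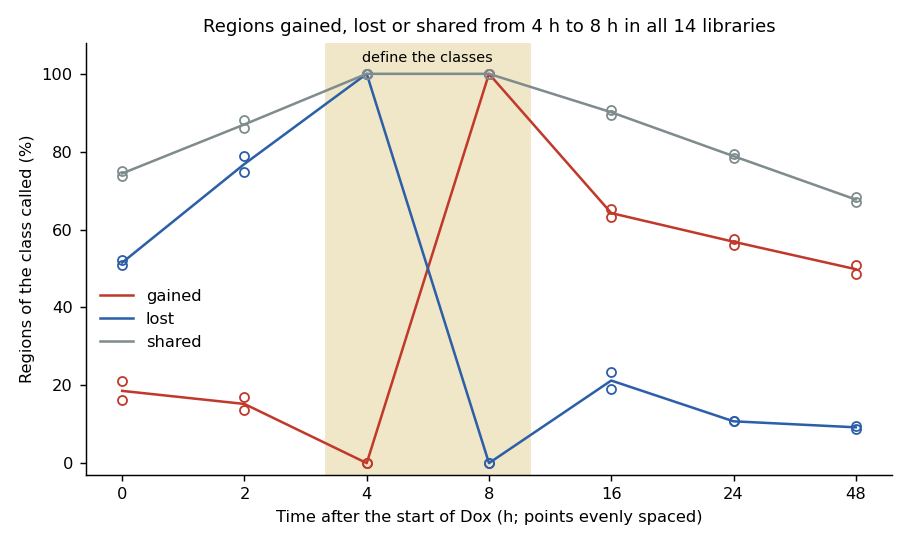
Share of the gained, lost and shared regions (%) that each of the 14 libraries called, against time after the start of Dox (h, evenly spaced). Circles are libraries and lines join the means of 2. By the rule the classes are at 0% or 100% at 4 h and 8 h (shaded). Gained regions lie at 48.7% to 65.2% from 16 h on and lost regions at 8.80% to 23.4%.

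Shared regions give a level beside which these shares can be read, but they were not matched in score rank. Their median percentiles were 64.9 to 66.5, against 24.0 to 27.3 for gained and lost regions. The part that score rank plays in the differences was not tested. The share of shared regions called was 74.4% ± 1.02 in the 0 h libraries and 87.0% ± 1.43 in those of 2 h. It was 90.1% ± 0.928 after 16 h, 78.9% ± 0.806 after 24 h and 67.7% ± 0.932 after 48 h (SD over 2 libraries). Gained regions thus lay below shared regions at every later time, and 1023 of them (25.7%) were called in neither library of 16 h. Lost regions were called more often at 16 h than at 24 h or 48 h, with 709 lost regions (14.9%) called in both 16 h libraries.

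Most gained regions were first called at 8 h. No library of 0 h or 2 h called 2685 of them (67.3%), and of those 749 were called in all 6 later libraries. A smaller group of 462 (11.6%) had been called in both 0 h libraries, and so was absent at 4 h and back at 8 h. These groups differed in place and motif. Of the 2685 first called at 8 h, 8.98% lay within 1 kb of a TSS and 73.7% held the GATA motif, and of the 462 called at 0 h these shares were 37.2% and 15.8%. No other library of the series called 524 gained regions (13.1%), of which 76.5% held the GATA motif.

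Lost regions included an older and a younger set, and others had mixed calls at 0 h and 2 h. Both 0 h libraries called 2173 of the 4748 (45.8%), and the 4 libraries of 0 h and 2 h all called 1693, so that they had been accessible before Dox and serum. Another 1280 (27.0%) were called in no 0 h library and in both 2 h libraries, and so were first called in serum with Dox and no longer called at 8 h. Only 432 (9.10%) were called in no library of 0 h or 2 h. Of the 1280 younger regions, the 16 h libraries called 6.45% ± 1.16 and the 48 h libraries 3.55% ± 0.166 (SD over 2 libraries), against 28.0% ± 3.94 and 8.42% ± 0.586 of those called in both 0 h libraries.

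GATA motifs were more frequent in gained regions than in any other class. In the central 200 bp the motif was held by 56.7% of the gained class and 33.6% of both the lost and the shared class, against 35.9% of all 81025 regions. In the replicate pairs taken singly the shares were 48.0% and 42.7% for gained, 32.5% and 34.2% for lost, and 34.0% and 34.0% for shared regions, and gained did not overlap the other classes. A control of the same bases in another order (AAGTAA or AAGTAG or TAGTAA or TAGTAG) matched 20.6% of the gained class, 22.4% of the lost and 18.1% of the shared. Away from start sites, at over 5 kb, the GATA motif was held by 65.7% of the gained class, 34.6% of the lost and 43.8% of the shared. After weighting to the GC content of gained regions, the shares were 28.0% of lost and 40.7% of shared regions.

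The motif was also repeated and central in gained regions. Of these, 29.8% held 2 or more matches and 12.5% held 3 or more, against 7.33% and 1.07% of lost and 11.4% and 3.50% of shared regions. Cut into 20 bp bins, gained regions had a GATA match in 12.8% of cases in the bin just left of the centre and 6.37% in the leftmost bin, whereas lost regions had 4.02% and 4.00%. The share of gained regions with the motif went from 47.8% in the lowest-scoring 25% of the class to 71.4% in the highest, and was 82.4% in the 216 regions above the median score of both libraries. In lost regions it was 34.5% in the lowest 25% and 33.7% in the highest. Gained promoters differed from the gained class as a whole. Of the 707 gained regions within 1 kb of a TSS, 21.4% held the GATA motif and 43.3% the KLF and SP motif GGGCGG. This was not particular to gained regions. Shared regions up to 5 kb from a TSS had GATA at 18.5% and KLF and SP at 42.1%, against 43.8% and 11.1% farther away. At up to 5 kb the gained class stood at 34.8% and 31.8%, and the lost class at 28.7% and 11.5%. A match is only a description of the letters and not a bound site.

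AP-1 motifs were more frequent in lost regions than in the other classes, and most of all in the younger ones. TGANTCA was present in 28.1% of lost, 5.62% of gained and 11.6% of shared regions, against 12.8% of all regions. In single replicate pairs the shares were 21.8% and 21.9% for lost, 7.39% and 6.90% for gained, and 11.8% and 11.7% for shared regions, without overlap between classes. Of the 1280 lost regions that no 0 h library and both 2 h libraries had called, 62.3% held the AP-1 motif, whereas of the 2173 called in both 0 h libraries 10.95% did. The latter share was below that of all regions. Gained regions with the same calls at 0 h and 2 h as the 1280 numbered 75, and 22.7% of them held the motif. Seen from the motif, 21.8% ± 0.159 of the 1332 lost regions with AP-1 were called before Dox (0 h), 88.4% ± 2.92 after 2 h and 7.66% ± 1.91 after 16 h (SD over 2 libraries). The 3416 without it were called at 63.1% ± 1.24, 72.3% ± 3.10 and 26.5% ± 3.64. The share with AP-1 went from 21.8% in the lowest-scoring 25% of lost regions to 33.1% in the highest, and the matches were most frequent near the centre, at 4.44% in the bin just right of it and 1.98% in the leftmost.

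**Figure D3:**
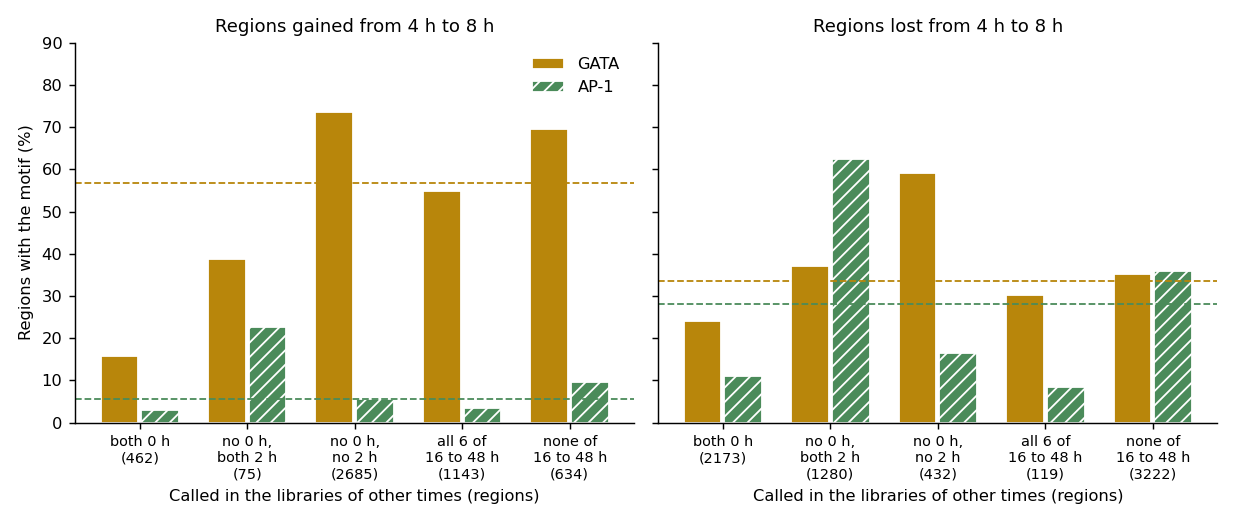
Share of gained (left) and lost (right) regions with the GATA or AP-1 motif in the central 200 bp (%), split by the libraries of other times that called them, with the number of regions in brackets. Dashed lines are the shares in the whole class. The AP-1 bar reaches 62.3% in lost regions absent at 0 h and called in both 2 h libraries, and the GATA bar reaches 73.7% in gained regions called at neither 0 h nor 2 h.

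The 432 lost regions that no library of 0 h or 2 h had called were unlike the rest of their class. GATA motifs were found in 59.0% of them and AP-1 motifs in 16.4%, and their median score percentile at 4 h was 13.5, against 29.5 for those called in both 0 h libraries. Among them, 241 of them were called in no other library of the series. Gained regions with the motif were rarely called before 4 h, with 5.73% ± 0.532 in the 0 h libraries and 6.11% ± 1.06 in those of 2 h, against 35.3% ± 7.32 and 27.1% ± 4.09 of those without it (SD over 2 libraries). At 16 h the shares were 64.5% ± 3.03 with and 63.8% ± 0.818 without the motif, and at 48 h 43.3% ± 0.688 and 58.4% ± 2.82.

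Motifs of pluripotency factors were more frequent in lost than in gained regions. The NR5A2 and ESRR motif CAAGGTCA was found in 4.38% of lost, 1.45% of gained and 1.81% of shared regions (2.12% of all), the OCT octamer ATGCAAAT in 3.73%, 1.60% and 2.12% (2.33% of all), and the SOX motif CATTGT in 15.6%, 10.9% and 9.88% (10.8% of all). KLF and SP motifs had the opposite order, at 7.29% of lost, 15.9% of gained and 23.6% of shared regions (18.6% of all). Over 5 kb from a TSS the KLF and SP shares were 6.50%, 9.36% and 11.1%. TEAD (GGAATG), FOXA (TGTTTAC) and HNF1 (GTTAAT) motifs stood at 15.9%, 2.61% and 4.61% of gained and 16.5%, 2.72% and 7.41% of lost regions. They were held by 14.7%, 2.36% and 4.85% of all regions. FOXA and HNF1 factors act in endoderm, and their motifs were no more frequent in gained regions than in lost ones. In gained regions both stood near the share of all regions, and HNF1 was above it in lost ones. Matches to different motifs were counted separately even where they shared bases.

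**Figure D4:**
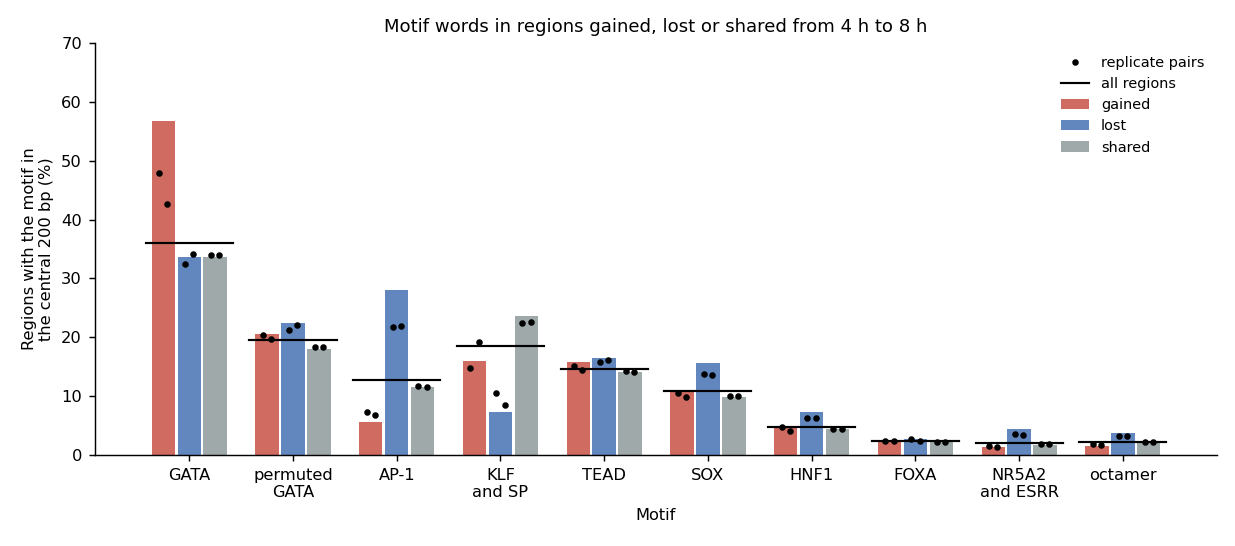
Share of regions (%) of each class with each motif in the central 200 bp. Bars are the classes as defined, dots the classes rebuilt from 1 replicate pair each, and black lines all 81025 regions. GATA reaches 56.7% in gained and AP-1 28.1% in lost regions, while the permuted GATA control stays between 18.1% and 22.4%.

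Regions within 50 kb of a TSS were given to the gene whose start site was nearest, which gave 62699 regions at 16725 genes, of which 2997 (4.78%) were gained and 3013 (4.81%) lost. PrE transcription factors, a list of 10 genes, had 9 gained (9.89%), 3 lost (3.30%) and 48 shared regions among 91. Gata4 had 4 gained regions of 15, Foxa2, a forkhead factor of the endoderm, 3 of 10, Sox17, an endodermal SOX factor, 1 of 4, and Tcf7l2, a partner of beta-catenin, 1 of 24. Gata6 itself had 5 shared regions among 13 and none gained or lost. The lost regions were at Sall1, a zinc-finger factor, with 2, and at Tcf7l2, with 1.

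Gained regions of Gata4 lay both at a start site and at a distance, and 1 of the 4 h libraries already had another peak within 1 kb of a start site. The intronic region at chr14:63264381-63265069 (GRCm38), whose sequence is given above, had score percentiles of 75.6 and 63.2 at 8 h, 94.8 and 90.3 at 16 h, 95.3 and 92.3 at 24 h, and 91.7 and 92.0 at 48 h, and was not called before 8 h. An intergenic region 25.7 kb from the start site, at chr14:63297044-63297826, stood at 49.9 and 58.1 at 8 h and was called in all 6 later libraries. The region over the first exon, at chr14:63271391-63271866, ranked at 14.3 and 30.3 and was called in 4 of the 6 later libraries. The remaining intronic region, at chr14:63231738-63232117, ranked at 13.9 and 12.5 at 8 h and at 91.2 and 91.0 at 48 h.

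The gained region of Sox17 was called in all 6 later libraries, as were 2 of the 3 gained regions of Foxa2. The Sox17 region at chr1:4537380-4537961 stood at 79.0 and 73.2 at 8 h, 86.4 and 88.6 at 16 h and 98.8 and 99.0 at 48 h, and no earlier library called it. Near Foxa2, a region in an intron 409 bp from a start site (chr2:148046187-148046526) had percentiles of 38.2 and 46.3 at 8 h and 76.8 and 70.1 at 48 h. A region 40.7 kb away (chr2:148004884-148005519) went from 19.08 and 4.13 at 8 h to 83.8 and 79.3 at 48 h. The third, at chr2:148013006-148013383, held 3 GATA matches, stood at 35.2 and 31.1 at 8 h, and was called in no other library. Percentiles rank a region within each list, so they do not measure how much its access changed.

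PrE receptors and endocytosis genes had 5 gained (10.4%) and 3 lost (6.25%) of 48 regions over 8 genes. Pdgfra, the receptor for platelet-derived growth factor that marks PrE cells, had 2 gained regions, 833 bp and 5.57 kb from its start site, with mean percentiles of 22.8 and 34.4. Cubn and Dab2, a receptor and an adaptor of endocytosis in the yolk sac endoderm, had 1 each, as did Fgfr2, a receptor for fibroblast growth factors. The Cubn and Fgfr2 regions were called in all 6 later libraries, and the Dab2 region in none. Lost regions lay in introns of Lrp2, the endocytic receptor megalin, with 2, and Stra6, a retinol transporter, with 1. The Stra6 region ranked at 50.2 and 79.7 at 4 h, and no library called it from 8 h on. In the basement membrane list, 7 of 102 regions were gained (6.86%) and 2 lost (1.96%). Nid2 and Col4a1, which encode a nidogen and a chain of collagen IV, had 2 gained regions each, and Nid1 and Sparc had 1 each. One gained region in a Col4a1 intron held 12 GATA matches, ranked at 24.0 and 8.98 at 8 h and was called in no other library. Nid1 and Lamc1, a laminin chain, had 1 lost region each.

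Naive pluripotency factors showed changes in both directions, with 11 gained (7.48%) and 7 lost (4.76%) of 147 regions over 15 genes. Esrrb had 3 lost regions, of which the highest (chr12:86504295-86504675, intron) had percentiles of 89.2 and 94.9 before Dox, 75.1 and 73.8 after 2 h, 72.6 and 41.9 after 4 h and 31.4 and 36.6 after 16 h. The lost region 15.4 kb from Klf2, at chr8:72334248-72334659, had percentiles of 90.9 and 97.1 before Dox, 88.7 and 88.0 after 2 h and 65.0 and 62.1 after 4 h, and no library called it from 8 h on. At Nanog, the region over the start site (chr6:122707368-122707643) stood at 31.9 and 21.9 at 4 h, was called in neither 8 h library, and was called again in both libraries of 16 h, at 56.3 and 44.7. The second lost region, at chr6:122689587-122690003, was of the younger kind, absent at 0 h, at 69.9 and 70.3 at 2 h and at 35.6 and 31.9 at 4 h. Tbx3 had 1 lost region.

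Gained regions at naive factors were lower in rank. Nr5a2 and Pou5f1, which encodes OCT4, had 2 each, with 1 of them at the start site in both cases, and these were called in all 6 later libraries with mean percentiles at 8 h of 20.7 and 18.8. Gained regions of Esrrb and Prdm14, a repressor of epiblast genes, ranked at 33.4 and 28.2. The Prdm14 region had been present in each early library (0 h and 2 h) and in none after 8 h.

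**Figure D5:**
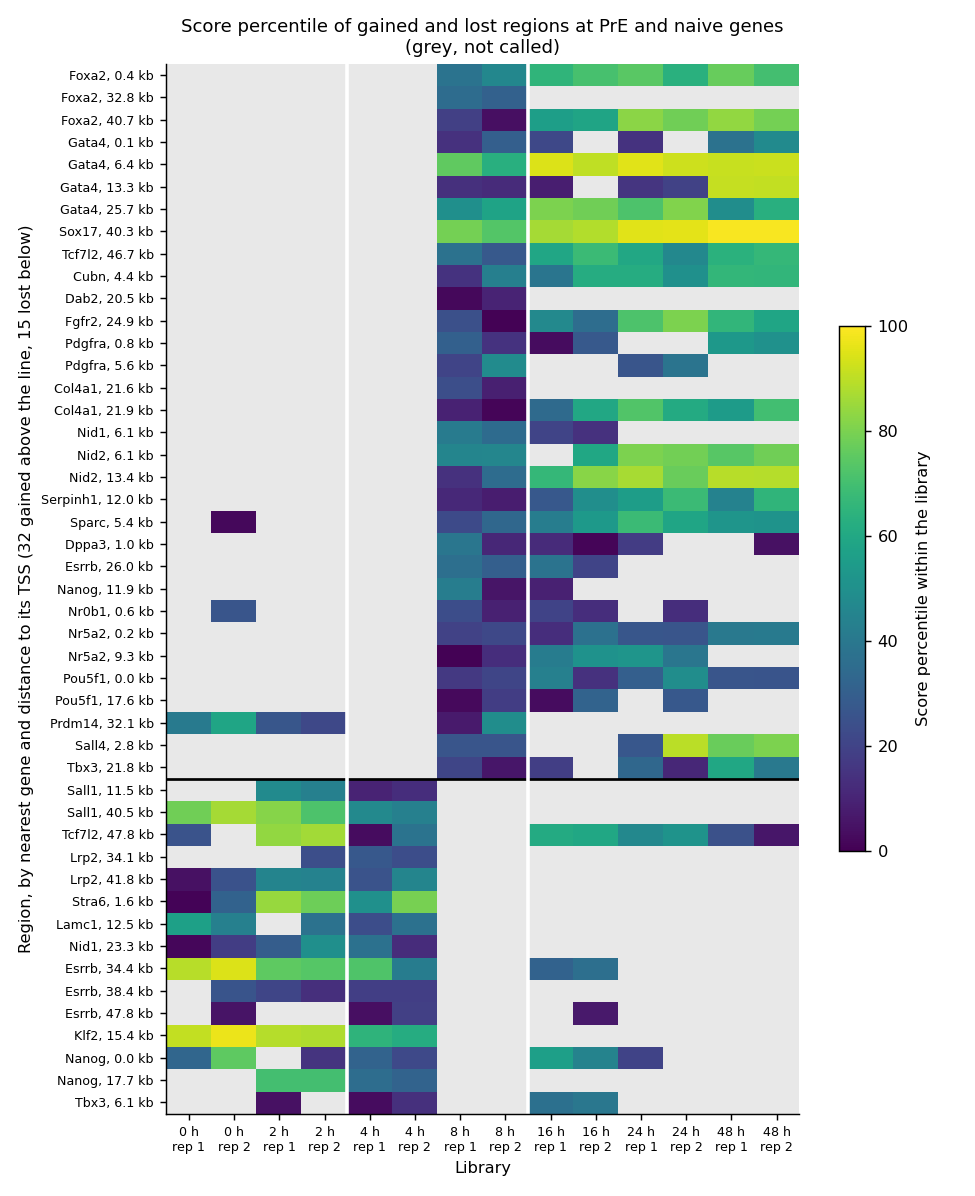
Score percentile within each of the 14 libraries (colour, 0 to 100; grey, not called) for the 32 gained and 15 lost regions nearest to genes of the PrE transcription factor, PrE receptor, basement membrane and naive factor lists. Rows give the gene and the distance to its TSS. White lines set off 4 h and 8 h. The Sox17 region and 1 Gata4 intron region stand at 92.3 to 95.8 at 24 h, and the Klf2 region is absent from 8 h on.

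Signalling and other lists had few changed regions, and their shares lay on both sides of the shares over all assigned regions. FGF and ERK feedback genes had 2 gained (1.79%) and 4 lost (3.57%) of 112 regions, with losses at Fgfr1 (2), Spred2 and Fgf4 and gains at Fgfr2 and Spry4. AP-1 and immediate-early genes had 4 gained and 4 lost (5.41% each) of 74. Myc, a target of growth signals, had 3 of the losses, between 4.62 and 16.7 kb from its start site, all called in both 2 h libraries and in none from 8 h on. The highest, at chr15:61991891-61992193, ranked at 86.1 and 80.1 at 2 h and 50.8 and 53.8 at 4 h, and held an AP-1 match. Atf3 had 2 gains, Fosb 1, and Ier2 1 of each kind. Nodal and BMP genes had 3 of each (4.00%) of 75, with gains at Id2, Id3 and Smad7 and losses at Smad7 (2) and Bmp6. Wnt targets also had 3 of each (4.92%) of 61, with gains at Sp5, Cdx1 and Axin2 and losses at Nkd1, Lef1 and Axin2. The formative and primed epiblast list had 1 gain, at Dnmt3b, and 2 losses, at Otx2 and Lef1, of 57. Fgfr2 and Lef1 stand in 2 lists each.

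Trophectoderm genes had 4 gained and 4 lost (5.71% each) of 70 regions, with gains at Gata2, Krt18, Gata3 and Tfap2c and losses at Elf5, Eomes, Krt18 and Gata2. Fibroblast genes had 1 of each (5.00%) of 20, at Twist1 and Twist2. Genes of unrelated lineages had 1 gain (5.00%), at Pax5, and 3 losses (15.0%), at Pax6 (2) and Myod1, of 20. The median over genes of gained minus lost regions was 0 in every list but PrE receptors and endocytosis, where it was 0.5, and 0 over all 16725 genes.

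The larger lists that the study drew from blastocyst single-cell data differed from all genes more clearly for PrE than for Epi genes. Of 2800 regions at 559 PrE genes, 177 (6.32%) were gained and 104 (3.71%) lost, and of 1434 regions at 212 Epi genes, 55 (3.84%) were gained and 75 (5.23%) lost, beside 4.78% and 4.81% over all assigned regions. At PrE genes the gained share was 19.3% and 18.8% in the 2 replicate pairs and the lost share 11.4% and 13.2%, against 17.5% and 15.9% gained and 14.4% and 16.7% lost over all genes. At Epi genes these were 14.7% and 13.3% gained and 14.6% and 17.5% lost, nearly equal in the first pair. The Epi lost share was near that over all genes by the class rule and in both pairs. Gains outnumbered losses at 117 PrE genes and the reverse held at 67, whereas for Epi genes the numbers were 27 and 46. Over all 16725 genes with a region they were 2069 and 2072. Genes of both study lists had more regions each than all genes had, and these gene counts were not adjusted for that. No test was made of these lists, and most regions in both were shared, at 54.2% and 54.6%.

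Genes with several changed regions were few. Of 16725 genes with a region, 2559 had a gained region, 369 had 2 or more and 60 had 3 or more, and the numbers for lost regions were 2571, 367 and 58. Both kinds occurred at 571 genes. Amot, which encodes a scaffold protein of the Hippo pathway, and Trim62 had the most gained regions, with 5 each, followed by Gata4, Glipr2 and Ubash3b with 4. Of the Amot regions, all 5 were called in at least 1 library of 16 h and 1 was called in all 6 later libraries. Pde4d, a phosphodiesterase, Slc12a8 and Tenm4 had 5 lost regions each, and Foxp1, a forkhead factor, and Tmcc3 had 4. The Slc12a8 regions at chr16:33636067-33636427 and chr16:33636512-33636813 had equal percentiles in every library of 0 h and 2 h, where the same peak covered both. In all, Amot and Trim62 had 9 regions each, Gata4 15, Glipr2 8 and Ubash3b 17. Pde4d had 41, Slc12a8 15, Tenm4 21, Foxp1 14 and Tmcc3 13.

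Of the 5 gained and 5 lost regions of highest rank, all but the second gained one lay over 5 kb from a start site. The first gained one, at chr12:58219200-58219375 near Sstr1, a somatostatin receptor gene, stood at 95.6 and 92.3 at 8 h and between 92.8 and 99.9 in the 6 later libraries. It was 176 bp wide, and its centre holds the repeated stretch named above. The second, 305 bp from a start site of Smim1 and over its first exon, held 3 GATA matches and ranked at 83.5 and 89.2. The region near Gfi1, which encodes a transcriptional repressor, lies in an intron of Evi5 (chr5:107759054-107759487) and ranked at 91.7 and 77.1 at 8 h and at 94.4 to 98.0 later. The fourth was the region of chromosome 2 shown above, and the fifth lay in an intron of Mgat5, at 80.8 and 78.3 at 8 h and 37.7 and 30.7 at 48 h. All 5 held a GATA match, were called in no library before 8 h and were called in all 6 later libraries. The 5 highest lost regions, of which 1 was assigned to a gene, Cpne4, and the fifth lay in an intron of Ctnna3, were the mirror image. They ranked between 82.2 and 91.5 at 4 h, were present in every library of 0 h and 2 h, and were called in none from 8 h on. Of these, 3 held an AP-1 match.

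The neighbouring steps differed in motif content. They share libraries with the step from 4 h to 8 h, so their values are set side by side and not tested. From 2 h to 4 h, 5288 of 80741 regions (6.55%) were gained and 4434 (5.49%) lost, and from 8 h to 16 h, across the removal of Dox, 7175 of 83598 (8.58%) were gained and 4549 (5.44%) lost. The step from 4 h to 8 h thus had the smallest number of gained regions of the 3. The GATA motif was held by 66.4% of regions gained from 2 h to 4 h, 56.7% from 4 h to 8 h and 42.3% from 8 h to 16 h, and by 23.0%, 33.6% and 51.0% of the regions lost in these steps. The AP-1 motif was held by 34.0%, 28.1% and 29.5% of the lost regions and by 8.55%, 5.62% and 4.56% of the gained ones. The shares over all regions of each step also moved. For GATA they were 32.4%, 35.9% and 37.2%, and for AP-1 16.1%, 12.8% and 9.85%.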

How the data were processed

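ATAC-seq peak lists of 14 libraries were analysed, 2 for each of 7 time points, with groups taken from the sample titles. The study's methods name the ENCODE ATAC-seq pipeline for the reads. From the file names, the authors called peaks in each library on its own, kept those passing an irreproducible discovery rate of 0.05 between pseudoreplicates and filtered them against a blacklist. The submitters' processing notes name deepTools and the build mm10, or GRCm38, and 0 of 839049 peaks ended past a chromosome of GRCm38. Each deposited peak carries 1 unnamed value, taken to be the authors' peak score, whose scale is not stated. It was used only to rank peaks within a list. The lists hold no read counts, so depth is unknown, the read count test of the study was not run and intervals that rest on depth are left out.

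Python 3.11.15 with pandas 2.3.3, numpy 2.4.6 and pysam 0.24.0 was used. A region counted as called in a library where at least 1 bp was covered. Regions were assigned to the nearest start site of a protein-coding gene of GENCODE M21 within 50 kb, with exon and intron read at the region's centre. Motif words were sought on both strands of the central 200 bp in the RefSeq GRCm38 genome. GC weighting used 10 strata. Replicate-pair values compare libraries of the same number. Shares over libraries were compared by exact two-sided permutation tests with Benjamini-Hochberg adjustment over 2 tests. The class rule and the tests were tested on simulated data.

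The members, lists and tests were chosen with earlier results of these data known. Of the study's lists, 570 of 579 PrE and 218 of 221 Epi symbols matched a protein-coding gene, and all symbols of the other lists did. Named were, at most 4 per list and direction, the list genes with most gained or lost regions and then the highest score percentile, the 5 gained and 5 lost regions of highest mean percentile, and the 5 genes with most regions of each kind. Sequence was printed for the top 3 regions of each kind and for list genes, leaving out windows with an exon. Alternatives covered other overlap, merging, score, distance and motif rules, a replicate block and leaving out single libraries.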

Additional observations from a re-analysis of the deposited data

How the results depend on the processing

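Of 61 alternatives that left out no library of 4 h or 8 h, 38 kept the result within its margin. With a single call of 2 enough at one time point and none at the other, there were 12492 gained and 12825 lost regions. Within 1 kb of a TSS lay 17.7% (gained), 4.70% (lost) and 30.4% (shared), and with start sites of all annotated genes 44.9%, 31.7% and 54.5% lay within 5 kb. With the 50000 highest peaks per library, 42.0% of shared regions lay within 5 kb and 6.70% of regions at study PrE genes were gained, and the latter share was 6.71% where 50% of a region had to be covered. The GATA share in the whole region, which is widest in the shared class, was 67.1% in gained, 57.3% in lost and 58.5% in shared regions, so the lead of gained regions was smaller than in the central window. Over 5 kb from a TSS it was 65.7% in gained and 43.8% in shared regions, and standardised to the GC content of gained regions 28.0% in lost and 40.7% in shared ones. In regions above the median score, an alternative added after seeing the data, it was 82.4% in gained and 32.5% in shared regions. Ranked by width, median percentiles were 36.1, 44.5 and 59.6 for gained, lost and shared regions.

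Leaving out 1 library of 4 h or 8 h makes the rule looser, and gained regions then numbered 6213 to 8397, lost 7396 to 9511 and shared 42684 to 43455. Within 5 kb of a TSS lay 27.5% to 32.7%, 16.5% to 18.7% and 39.0% to 40.1%, and the GATA share was 46.0% to 52.3%, 33.1% to 34.3% and 33.5% to 34.1%. At study PrE genes 10.0% to 12.3% of regions were gained and 6.04% to 8.18% lost, and at study Epi genes 6.62% to 8.09% and 7.81% to 10.5%. Median score percentiles were 16.1 to 27.3, 17.2 to 28.6 and 63.6 to 63.8. Peak number, 8 h minus 4 h, lay between -1206 and 1657, and was -1206 without 4 h replicate 1, the reverse of the 225.5 with all libraries, and the covered length difference lay between -2.48 and -0.769 Mb. The later minus earlier share was 29.8 to 32.8 points for gained and -42.5 to -37.4 for lost regions (exact permutation p = 0.00476 throughout).

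Libraries of the same number share only a number, and their deviations within 4 h and within 8 h had a correlation of -0.00697 over 81025 regions. With a replicate block, the later minus earlier differences of 40.1 and -50.5 points had an exact permutation p of 0.0100 each, after adjustment, and the block changed no call. Peak number (225.5) and covered length (-1.63 Mb) had p = 1 and p = 0.500 by the exact permutation test within the block.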

Other observations

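A pair of changed regions lay side by side in an intron of Tcf7l2. The gained region at chr19:55788690-55789412 was called in both 8 h libraries and all 6 later ones, and in none before. The lost region at chr19:55789931-55790394 was called in 1 library of 0 h, both of 2 h and both of 4 h, in neither of 8 h, and again in all 6 later libraries.

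Repeats were somewhat more frequent in lost regions. At least 50% of the central 200 bp was marked as repeat in the genome file in 6.34% of lost, 3.89% of gained, 2.90% of shared and 4.03% of all regions. The AP-1 motif was held by 27.9% of the 301 lost regions in repeats and 28.1% of the others, and the GATA motif by 53.5% of the 155 gained regions in repeats and 56.8% of the others.

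Persistence differed within the gained class. The 1143 gained regions called in all 6 later libraries had a median score percentile of 32.1 at 8 h and the 634 called in none of them 17.5, and the GATA motif was held by 54.8% and 69.6% of these. Of the lost regions, 119 were called in all 6 later libraries, with a median percentile of 18.5 at 4 h, and 3222 in none, with 27.3.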
